A study of Mus musculus with 6 samples.

Results

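The T cell receptor beta locus of the mouse holds the V, D and J gene segments from which each T cell builds the variable end of its beta chain. The segments were taken as every identifier in the deposited gene tables whose mouse symbol starts with Trbv, Trbd or Trbj, a rule that uses no measured value. It gave 51 of 55487 identifiers: 35 V segments, 2 D segments and 14 J segments. Naive CD4+ T cells, mature cells that no antigen has yet activated, were freshly isolated from the spleen (3 libraries) or from the mesenteric lymph nodes that drain the gut (mLN, 3 libraries) of untreated wild-type mice of the C57BL6/J strain, and their polyadenylated RNA was sequenced. All 6 libraries share that genotype, strain and lack of treatment, and the labels give no age and no account of how the naive cells were purified. The labels do not say whether replicates came from separate animals, so every p-value measures only how these libraries vary, and that variation may be technical.

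In the developing thymocyte the RAG recombinase first joins a D to a J segment and then a V segment to that DJ, with bases trimmed and added at each joint. The joined VDJ stretch is spliced to one of a pair of constant genes, Trbc1 or Trbc2, and the resulting chain pairs with an alpha chain and the CD3 proteins on the cell surface. The V segment supplies most of the antigen-binding domain, and the joint itself forms CDR3, the loop that lies over the peptide. Each mature T cell carries, as a rule, one productive beta rearrangement, so V segment RNA in a population is read as the usage of that segment among its cells, on the background that usage also follows recombination frequency and thymic selection.

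All 51 segments lie on chromosome 6 of GRCm38, the assembly that mm10 names. The V segments run from position 40891229 to 41558452, with 34 of 35 on the plus strand. Trbv31 lies on the minus strand, beyond the D, J and constant genes. GENCODE vM21 annotates 22 V segments as functional and 13 as pseudogenes, and 13 of the 14 J segments as functional.

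The D segments and a few J segments are printed first, from the GENCODE transcripts, because their length decides what the tables can hold. Each reads 5′ to 3′ on the plus strand, and capitals mark the letters TTNGG, any 4 bases and GGN, which hold the codons of the conserved phenylalanine-glycine turn at the end of CDR3.
Trbd1 (chr6:41533201-41533212): gggacagggggc
Trbd2 (chr6:41542163-41542176): gggactgggggggc
Trbj1-1 (chr6:41533864-41533911): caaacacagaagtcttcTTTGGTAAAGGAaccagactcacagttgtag
Trbj1-6 (chr6:41535554-41535606): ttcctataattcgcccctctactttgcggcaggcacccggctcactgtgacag
Trbj2-1 (chr6:41542754-41542803): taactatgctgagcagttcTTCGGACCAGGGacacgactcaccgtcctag
Trbj2-6 (chr6:41543598-41543645): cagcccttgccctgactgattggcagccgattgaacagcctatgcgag
Trbj2-7 (chr6:41543810-41543856): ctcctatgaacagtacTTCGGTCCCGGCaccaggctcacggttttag
The letters were found in 11 of 13 functional J segments, the exceptions being Trbj1-6 and Trbj1-7, and not in the pseudogene Trbj2-6. Among other GENCODE transcripts the same letters stood in 0.606% of last windows of 53 bases on the transcript strand and in 1.04% on the reverse strand, and no J segment held them on the reverse strand.

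For the V segments, the last 60 bases are printed for the members on which the results turn, because this end enters the joint with D and J. Capitals mark TGTGCCAGC, which holds the codon of the conserved cysteine that opens CDR3 and the alanine and serine codons after it. Trbv13-1, Trbv13-2 and Trbv13-3 form one family (Tcrb-V8.3, Tcrb-V8.2 and Tcrb-V8.1 in the RefSeq table), Trbv12-1 and Trbv12-2 another, and Trbv24 and Trbv26 are a pseudogene and a functional segment with similar ends.
Trbv13-1 (chr6:41116409-41116468, plus): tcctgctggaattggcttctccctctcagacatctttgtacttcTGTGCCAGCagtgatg
Trbv13-2 (chr6:41121773-41121832, plus): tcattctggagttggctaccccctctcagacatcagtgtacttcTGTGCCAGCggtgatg
Trbv13-3 (chr6:41130526-41130585, plus): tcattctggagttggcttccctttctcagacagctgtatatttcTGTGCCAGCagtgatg
Trbv12-1 (chr6:41114008-41114067, plus): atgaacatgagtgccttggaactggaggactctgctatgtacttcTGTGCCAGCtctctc
Trbv12-2 (chr6:41119305-41119364, plus): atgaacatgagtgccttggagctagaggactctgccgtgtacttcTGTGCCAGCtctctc
Trbv19 (chr6:41178989-41179048, plus): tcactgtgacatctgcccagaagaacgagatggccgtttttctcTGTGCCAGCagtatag
Trbv26 (chr6:41227934-41227993, plus): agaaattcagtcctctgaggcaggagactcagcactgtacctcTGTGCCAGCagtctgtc
Trbv24 (chr6:41218498-41218557, plus): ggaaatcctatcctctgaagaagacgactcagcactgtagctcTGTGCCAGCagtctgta
Trbv1 (chr6:40891826-40891885, plus): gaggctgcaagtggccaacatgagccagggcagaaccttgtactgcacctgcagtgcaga
Trbv31 (chr6:41557691-41557750, minus): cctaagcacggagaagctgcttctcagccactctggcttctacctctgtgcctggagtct
The motif was found in 13 of 22 functional V segments and in 4 of 13 pseudogenes (Trbv12-3, Trbv18, Trbv22 and Trbv24), against 0.0369% of the last 60 bases of other GENCODE transcripts on the transcript strand and 0.0327% on the reverse strand. No V segment held it on the reverse strand, and Trbv1 and Trbv31 do not hold these letters in the window. Counted from 1 at the first base printed, with the Trbv26 base first, Trbv24 differs from Trbv26 among others by C40G. That base completes a TAG stop codon at position 38 in frame with the cysteine codon, the only in-frame stop before the motif among the 17 windows that hold it. From the motif on, Trbv4 alone holds one, a TAA at position 56 of its window.

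No D or J segment received a count in any library. The D segments are 12 and 14 nucleotides long and the J segments 45.5 to 53 nucleotides as deposited, and RSEM's effective length, the number of positions at which a whole sequenced fragment can start, was 0 for each of them in each library. A share of the D or the J class could therefore not be computed, nor the usage of the Trbj2 cluster against the Trbj1 cluster, and their 0 counts carry no limit on their presence in the RNA. The nearest measure of that choice is the constant gene, since Trbc1 lies downstream of the Trbj1 cluster and Trbc2 of the Trbj2 cluster. Trbc1 took 31.6, 33.4 and 32.5% of the summed Trbc counts in spleen replicates 1, 2 and 3 and 32.9, 33.9 and 33.8% in mLN replicates 1, 2 and 3 (32.5 ± 0.908 against 33.5 ± 0.542%, SD, n = 3 each). The groups overlapped (two-sided exact permutation p = 0.20), and Trbc1 and Trbc2 are near-identical genes between which the authors' counting may have split reads.

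Among V segments, all 22 functional ones and 3 of the 13 pseudogenes had a count in at least 1 library. Their models are 285 to 566 nucleotides long, close to the fragment length, and their effective lengths ran from 28.51 to 306.32 nucleotides. A longer V model therefore offers more places for a fragment, and the order of segments by usage is given below as TPM, which divides by effective length. Measures over count shares, such as the effective number of segments, carry this length dependence in both groups, but not equally in every library. From spleen replicate 1 to mLN replicate 2 the effective length went from 83.09 to 60.62 nucleotides for Trbv13-3 and from 301.46 to 266.25 for Trbv19. Count shares in mLN replicate 2 are therefore tilted against short models. Counts were whole numbers (within 0.005) in every library for 23 of the 25 segments. The exceptions, Trbv4 and Trbv5, are overlapped on the same strand by the noncoding gene 5830405F06Rik, and their values are uncertain to that extent. That gene had 74.1, 62.45 and 62.33 counts in the spleen libraries and 30.13, 41.23 and 76.22 in the mLN libraries, which overlapped (log2 fold change −0.53, edgeR adjusted p = 0.291).

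The expected counts summed to between 13205499 and 20054205 per library, of which V segments held 3512, 4825 and 3730 in spleen replicates 1, 2 and 3 and 2837, 1955 and 3582 in mLN replicates 1, 2 and 3. The CD4 part of the cell label was checked in CPM (counts divided by the TMM-adjusted library size). Cd4 averaged 930 ± 45.1 for spleen and 891 ± 12.4 for mLN. Both CD8 genes were lower in each group. Cd8a averaged 1.92 ± 0.480 for spleen and 3.83 ± 1.73 for mLN, and Cd8b1 14.8 ± 0.872 and 13.3 ± 2.39. These genes do not bear on the naive part of the label. The difference between transcript length and effective length, which follows the fragment length RSEM estimated, was 259.8 to 270.2 nucleotides in 5 libraries and 300.1 in mLN replicate 2, over 7421 genes longer than 3000 nucleotides. The median effective length of the V segments was 104.7 to 112.3 nucleotides in the 5 and 81.3 in mLN replicate 2. Between libraries of 1 group the V counts varied by more than independent counting would give. Chi-square divided by its degrees of freedom was 2.72 to 7.53 over V segments. Over all genes it was higher in every pair, with 10.7 against 7.53 for mLN replicates 2 and 3. Fragments without molecular identifiers are not independent molecules, so this excess alone does not show a difference in V usage.

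V segment RNA was lower in every mLN library than in every spleen library on the scale of library totals. The summed V counts came to 248, 274 and 232 CPM in spleen replicates 1, 2 and 3 and to 174, 147 and 178 CPM in mLN replicates 1, 2 and 3. The group means were 252 ± 21.0 and 166 ± 16.9 CPM, a ratio of 0.660 (log2 ratio −0.60). The two-sided exact permutation p was 0.10, the smallest that 3 against 3 libraries can give. In bulk RNA, fewer cells with a rearranged segment and less of its RNA per cell cannot be told apart.

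The difference was smaller in TPM and when set against the constant genes. Summed V TPM was 2270, 2438 and 2269 in the spleen libraries and 1999, 2024 and 1983 in the mLN libraries, which again did not overlap (exact permutation p = 0.10) but gave a ratio of 0.861 (log2 ratio −0.22). TPM rescales every gene, and on log2(TPM + 1) the median of all genes was 0.21 higher in mLN. On that scale mLN replicate 2, lowest in CPM, was the highest of the mLN libraries. Set against the constant genes, V segments had 18.9, 20.3 and 17.0 counts per 100 Trbc counts in spleen and 17.9, 15.3 and 17.5 in mLN. These groups overlapped (18.7 ± 1.62 against 16.9 ± 1.40, log2 ratio −0.15, exact permutation p = 0.30). mLN replicate 2, the library with the longest estimated fragments, had the lowest V total in CPM, and the log2 ratio without it was −0.52. The part of fragment length in the V total was not tested.

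**Figure D1:**
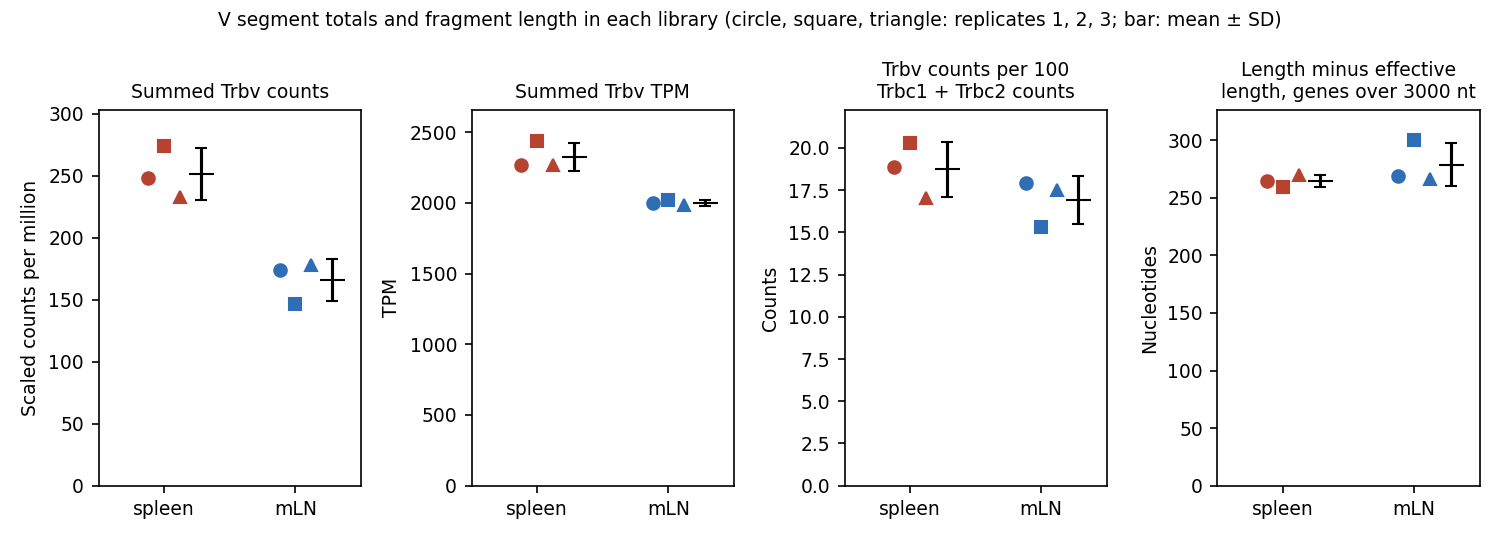
Each panel plots 1 value per library for spleen (red) and mLN (blue), with the mean and SD of 3 libraries beside the points: summed V segment counts in scaled CPM, summed V segment TPM, V counts per 100 counts of Trbc1 and Trbc2, and transcript length minus effective length in nucleotides. The groups are apart in CPM (252 against 166) and in TPM (2326 against 2002) and overlap per Trbc count, and mLN replicate 2 stands above the other libraries in the last panel at 300.1 nucleotides.

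The segments were then tested one by one. edgeR's quasi-likelihood test, fitted on 12486 genes, tested 21 V segments and called 11 lower and 0 higher in mLN at an adjusted p under 0.05. That is 52.4% of the tested segments called lower, where 13.5% of all genes tested were called lower and 16.1% higher. At an unadjusted p under 0.05, 14 segments were lower and 0 higher. The share of all genes at that threshold was not counted, so nothing is read from this count. Of the 21 fold changes 20 were negative, with a median of −0.61 and a range of −1.05 to 0.17 on the log2 scale, against a median of −0.01 over all genes. In scaled CPM all mLN libraries lay below all spleen libraries for 16 of the 21 (76.2%, against 20.3% of all genes), and for none did all lie above (21.5% of all genes). The segments that had a count but too few for the test were Trbv8, Trbv12-3, Trbv21 and Trbv30.

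Trbv19 (ENSMUSG00000076475), whose V model is the longest at 566 nucleotides, had the smallest adjusted p. It stood at 22.4, 25.0 and 15.9 CPM in spleen replicates 1, 2 and 3 and at 12.5, 12.4 and 10.9 CPM in mLN replicates 1, 2 and 3. Spleen replicate 3 was the low one of its group and still above every mLN library. The fold change was −0.83 ± 0.17 (log2, SE, edgeR adjusted p = 0.0010).

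The Trbv13 family, whose printed ends are alike, was called lower in all 3 members. Trbv13-1 had 13.9, 15.2 and 14.6 CPM in spleen and 7.73, 7.21 and 10.1 CPM in mLN. Trbv13-2 had 22.8, 30.1 and 24.6 CPM in spleen and 20.3, 12.5 and 19.9 CPM in mLN. Trbv13-3 had 13.8, 14.5 and 14.7 CPM in spleen and 9.27, 5.33 and 11.7 CPM in mLN. In each of the 3 members every mLN library was below every spleen library, and mLN replicate 2 was the lowest library. Their log2 fold changes were −0.79, −0.55 and −0.69 with edgeR adjusted p of 0.00292, 0.0167 and 0.0236. Without mLN replicate 2 Trbv13-2 (−0.37, edgeR adjusted p = 0.0964) and Trbv13-3 (−0.45, edgeR adjusted p = 0.114) were not called, nor without spleen replicate 2 (edgeR adjusted p = 0.114 and 0.0680).

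The pair Trbv12-1 and Trbv12-2, 88.3% identical over their length, did not share a call. Trbv12-2 fell the most of the called segments, from 5.16, 6.53 and 4.36 CPM in spleen to 1.60, 2.78 and 3.37 CPM in mLN (log2 fold change −1.05 ± 0.34, edgeR adjusted p = 0.0242). It was not called without spleen replicate 2 (−0.89, edgeR adjusted p = 0.122) or without mLN replicate 1 (−0.80, edgeR adjusted p = 0.106). Trbv12-1 was at 2.62, 1.70 and 1.74 CPM in spleen and 3.25, 1.43 and 2.08 CPM in mLN, overlapping groups and the only positive fold change (0.17 ± 0.46, edgeR adjusted p = 0.829). Whether the 2 segments differ in their change was not tested.

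Trbv31, the segment in inverse orientation, had 23.2, 23.9 and 19.4 CPM in spleen and 16.0, 13.8 and 13.8 CPM in mLN (log2 fold change −0.61 ± 0.15, edgeR adjusted p = 0.00376). Its groups did not overlap. The other called segments were Trbv5 (−0.75, adjusted p = 0.00307), Trbv3 (−0.53, 0.00624), Trbv4 (−0.82, 0.0204), Trbv15 (−0.77, 0.0215) and Trbv14 (−0.81, 0.0440). Trbv1, at 20.9, 29.8 and 20.6 CPM in spleen and 21.0, 20.7 and 15.9 CPM in mLN, overlapped and was not called (−0.32 ± 0.16, adjusted p = 0.154). Trbv2 (−0.39), Trbv16 (−0.54), Trbv17 (−0.96), Trbv20 (−0.50), Trbv26 (−0.63) and Trbv29 (−0.52) were not called either, with adjusted p between 0.0673 and 0.240.

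The calls followed the scale and the libraries. Without spleen replicate 2 there were 5 segments called lower, without mLN replicate 1 there were 7, and without mLN replicate 2 there were 6, beside 10.3%, 11.3% and 11.3% of all genes called lower. Trbv3, Trbv5, Trbv13-1, Trbv19 and Trbv31 were called with any 1 of the 6 libraries left out, and Trbv4, Trbv12-2, Trbv13-2, Trbv13-3, Trbv14 and Trbv15 were not called in at least 1 of these fits. After log2 CPM was corrected in each library for its smooth dependence on gene length none was called in edgeR (median fold change −0.15, smallest adjusted p = 0.0690). Beside this, 9.19% of all genes were called lower and 14.4% higher at an adjusted p under 0.05. With an unadjusted p under 0.05, 1 segment was lower and 0 higher, and all genes were not counted at that threshold. On the log2(TPM + 1) scale limma called 2, Trbv13-1 (−0.40, adjusted p = 0.0159) and Trbv4 (−0.43, adjusted p = 0.0283), with 3.08% of all genes lower and 22.1% higher. The median of the 21 segments was −0.26 there, against that of all genes at 0.21.

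Scaled to the V total, so that a fold change is a change of usage, no segment was called in edgeR. Of the 21 fold changes 13 were negative and 8 positive, with a median of −0.03, a range of −0.43 to 0.74 and a smallest adjusted p of 0.156, and 0 passed an unadjusted p under 0.05. Standard errors were larger here than in the main fit for every tested segment but Trbv16 (Trbv5 0.182 to 0.232, Trbv31 0.150 to 0.201). The lack of calls therefore does not show that usage was unchanged. On this scale the median of all genes was 0.59, with 56.8% of genes called higher and 1.19% lower. Trbv19 went from −0.83 to −0.21 ± 0.21, Trbv13-2 from −0.55 to 0.03 ± 0.19, and Trbv12-2 from −1.05 to −0.43 ± 0.38. Trbv12-1 at 0.74 ± 0.51 and Trbv1 at 0.31 ± 0.19 had the highest values.

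**Figure D2:**
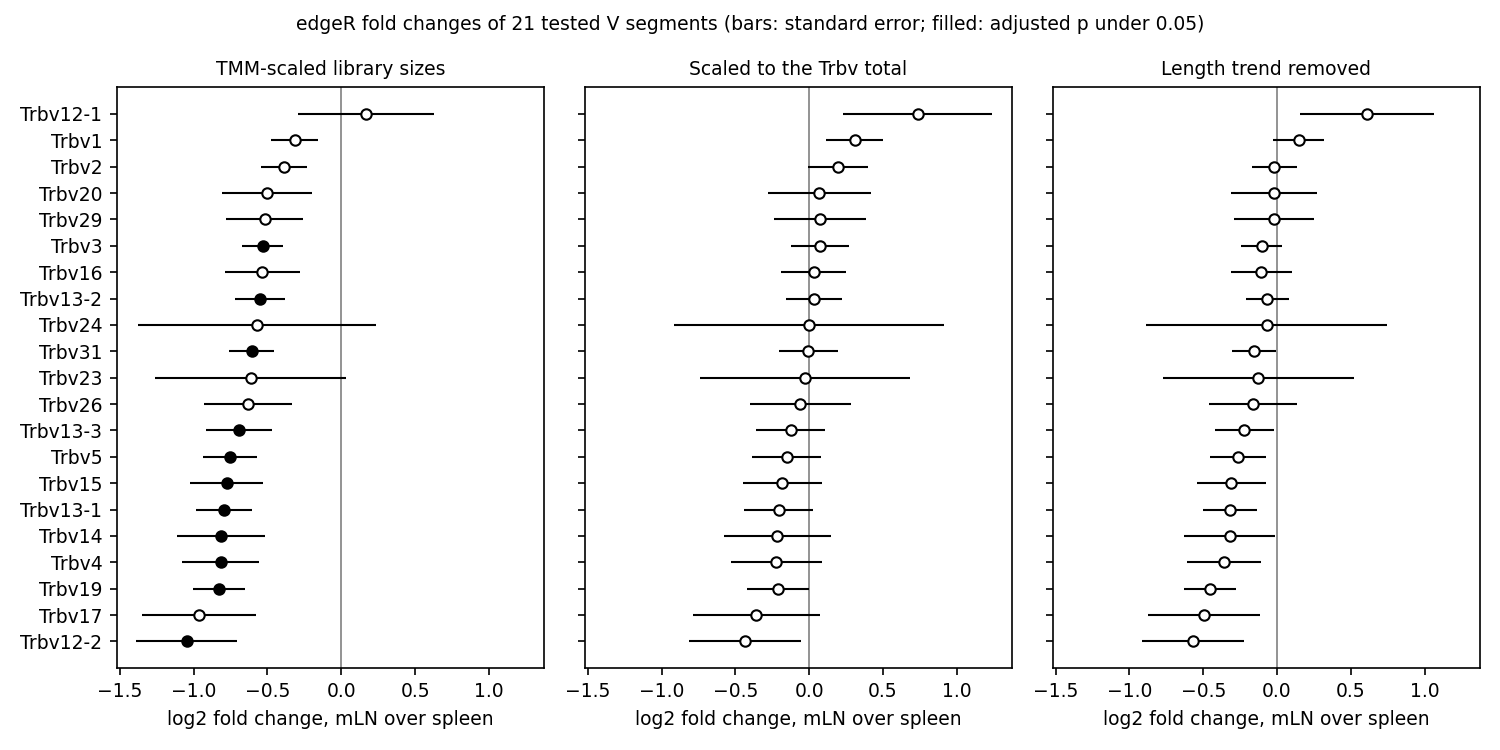
Points are edgeR log2 fold changes (mLN over spleen) of the 21 tested V segments, bars are standard errors, and filled points have an adjusted p under 0.05, under 3 scalings. With TMM-scaled library sizes 20 of 21 are below 0 and 11 are filled, whereas scaled to the V total 13 are below 0 and none is filled, and none is filled after the length trend is removed.

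Usage was then described as each segment's share of the summed V counts of its library. The 19 segments with a mean share of at least 1% held 98.4 to 99.3% of V counts. For none of the 19 were the groups apart: 8 had a higher mean share and 11 a lower one in mLN, with differences from −1.09 to 2.32 percentage points, and the smallest of 19 two-sided exact permutation p was 0.20. As background, 61.1% of all genes tested lay wholly higher and 1.80% wholly lower in mLN when counted per V count. Leaving out a library, which leaves 2 against 3, put 3 segments apart without spleen replicate 1, 2 without spleen replicate 2, 3 without spleen replicate 3, 0 without mLN replicate 1, 4 without mLN replicate 2 and 5 without mLN replicate 3. Over all genes counted per V count, 62.7 to 69.6% were then wholly higher and 2.11 to 3.01% wholly lower, a background set by the shift of this scale, and nothing is read from these counts.

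With all 6 libraries Trbv1 had the largest difference in mean share, 2.32 points. It took 8.43, 10.9 and 8.87% of V counts in spleen replicates 1, 2 and 3 and 12.1, 14.1 and 8.96% in mLN replicates 1, 2 and 3 (9.40 ± 1.31 against 11.7 ± 2.60%). The difference was 1.11 points without mLN replicate 2, below those of Trbv16 (1.30), Trbv2 (1.19) and Trbv13-2 (1.17) in the same setting, and 3.69 points without mLN replicate 3. The third mLN library lay among the spleen libraries (95% Wilson interval 8.07 to 9.94%), and mLN replicate 2 was the highest (12.6 to 15.7%). These intervals cover counting error only, since fragments without molecular identifiers are not independent molecules. The exact permutation p was 0.20.

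Trbv19, the largest difference in the other direction with all 6 libraries (−1.09 points, −0.53 without mLN replicate 3 and −1.84 without spleen replicate 3), took 9.03, 9.12 and 6.84% in spleen and 7.16, 8.44 and 6.11% in mLN (8.33 ± 1.29 against 7.24 ± 1.17%, exact permutation p = 0.30). Trbv2 took 9.05, 6.49 and 8.15% in spleen and 9.55, 8.95 and 8.63% in mLN, with spleen replicate 2 the low library. Trbv13-2 took 9.20, 11.0 and 10.6% in spleen and 11.7, 8.54 and 11.2% in mLN. Trbv3, at 9.82, 9.66 and 9.12% in spleen and 9.48, 11.0 and 9.66% in mLN, and Trbv31, at 9.34, 8.71 and 8.34% in spleen and 9.16, 9.41 and 7.79% in mLN, had some of the steadiest shares. After Trbv1, Trbv16 had the widest spread within mLN, from 4.25% in replicate 2 to 9.02% in replicate 3 (6.72 ± 2.39%), around a spleen mean of 6.66 ± 0.52%.

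**Figure D3:**
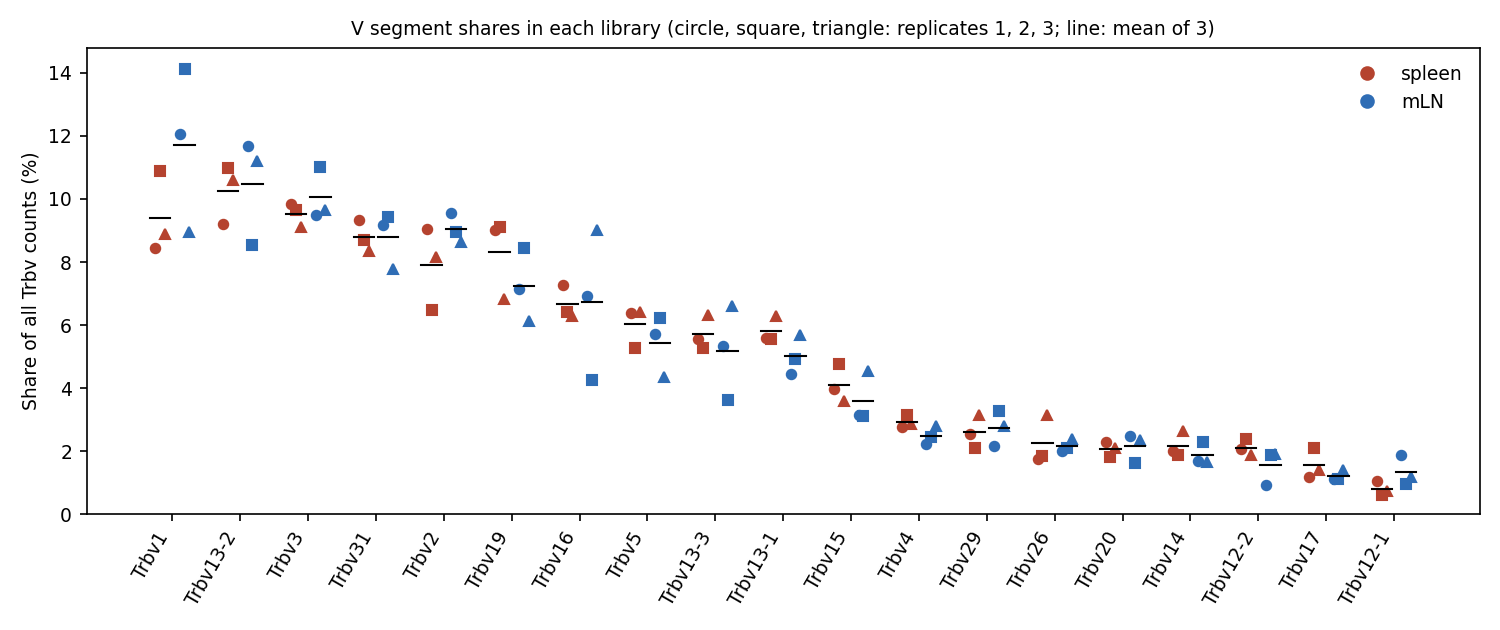
Each point is the share of a library's V counts taken by 1 segment, in percent, for the 19 segments with a mean of at least 1%, ordered by mean share, with the 3 libraries of spleen (red) and mLN (blue) and a line at each mean. The groups overlap for every segment, and Trbv1 (8.43 to 10.9% in spleen, 8.96 to 14.1% in mLN) has the widest gap between means.

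With both groups pooled, the usage profile as a whole separated libraries of the same group about as far as libraries of different groups. The summed half-difference between 2 libraries' shares, the part of V usage that would have to move to turn one profile into the other, averaged 9.14 percentage points between groups (6.55 to 11.6) and 9.50 within groups (6.88 to 14.6). The within-group mean pools unlike groups: pairs of spleen libraries were 7.24, 6.88 and 8.59 points apart, and pairs of mLN libraries 10.1, 9.59 and 14.6. The most distant pair was mLN replicates 2 and 3, both from mLN, and the closest was spleen replicate 3 with mLN replicate 3. Counting error adds to these distances, and mLN replicate 2 had the fewest V counts (1955) and the longest estimated fragments. The part of either in the distances was not tested. The exact permutation p of between minus within was 0.70. The effective number of V segments, which equals the number of equally used segments with the same diversity, was 16.1, 16.1 and 16.8 in spleen and 15.5, 15.7 and 16.4 in mLN (exact permutation p = 0.30). The 5 most used segments of a library held 47.0 ± 2.19% of V counts in spleen and 50.5 ± 2.61% in mLN (exact permutation p = 0.20).

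Families and neighbours along the locus were compared in the same way. The Trbv13 family together took 20.3, 21.8 and 23.2% of V counts in spleen and 21.4, 17.1 and 23.5% in mLN (exact permutation p = 0.70). Trbv13-2 and Trbv13-3 are 90.6% identical with a longest shared run of 50 nucleotides, while the median pair of the 19 segments is 57.8% identical. Counts of both were whole numbers in every library, which gives no sign of fragments divided between them. Wrong assignment of reads within the family was not tested. The Trbv12 family, with its pseudogene Trbv12-3 included, took 2.92 ± 0.263% in spleen and 2.93 ± 0.195% in mLN (exact permutation p = 0.90), a difference of 0.0130 points that was −0.0138 over functional segments only. Trbv12-2 was at 0.916% in mLN replicate 1 against 1.89 and 1.90% in the other mLN libraries, and Trbv12-1 was at 1.87% in that same library against 0.972 and 1.17%. Along the chromosome, the block from Trbv1 to Trbv5, farthest from the D segments, took 35.8 ± 0.607% in spleen and 38.7 ± 4.19% in mLN, and the block from Trbv14 to Trbv20 took 24.9 ± 1.78% and 22.8 ± 2.12%. Both pairs of groups overlapped (exact permutation p = 0.40 and 0.20).

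Compared per length, Trbv13-2 was the most used segment of the locus. It held 16.2% of summed V TPM on average over the 6 libraries (14.5 to 18.3%), and each of its values was above each value of the next segment, Trbv1, at 8.81% (7.17 to 11.9%). After Trbv1 came Trbv13-3 (8.48%), Trbv31 (7.56%), Trbv5 (6.90%), Trbv13-1 (6.60%), Trbv3 (6.54%) and Trbv16 (6.34%), then Trbv15 (4.54%), Trbv29 (3.68%), Trbv2 (3.62%), Trbv20 (3.47%) and Trbv19 (3.26%). The lowest of the 19 were Trbv26 (2.68%), Trbv4 (2.66%), Trbv14 (2.43%), Trbv12-2 (1.93%), Trbv17 (1.58%) and Trbv12-1 (1.09%). Apart from Trbv13-2 over Trbv1, no segment had all 6 values above all 6 values of the next in this order. By counts Trbv1 ranked 1st and Trbv13-2 2nd, with mean shares of 10.6 and 10.4%, so the lead of Trbv13-2 rests on the division by effective length. Trbv2 and Trbv19, the segments with the longest models, ranked 5th and 6th by counts and 11th and 13th by TPM. In TPM shares the groups were apart for 1 of the 19, Trbv4, at 2.78, 3.09 and 2.73% in spleen and 2.20, 2.48 and 2.70% in mLN, a segment overlapped by another gene. Across the 19 segments the spleen and mLN mean TPM shares had a Pearson r of 0.986 and a Spearman rho of 0.977, a description over segments that are not independent.

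**Figure D4:**
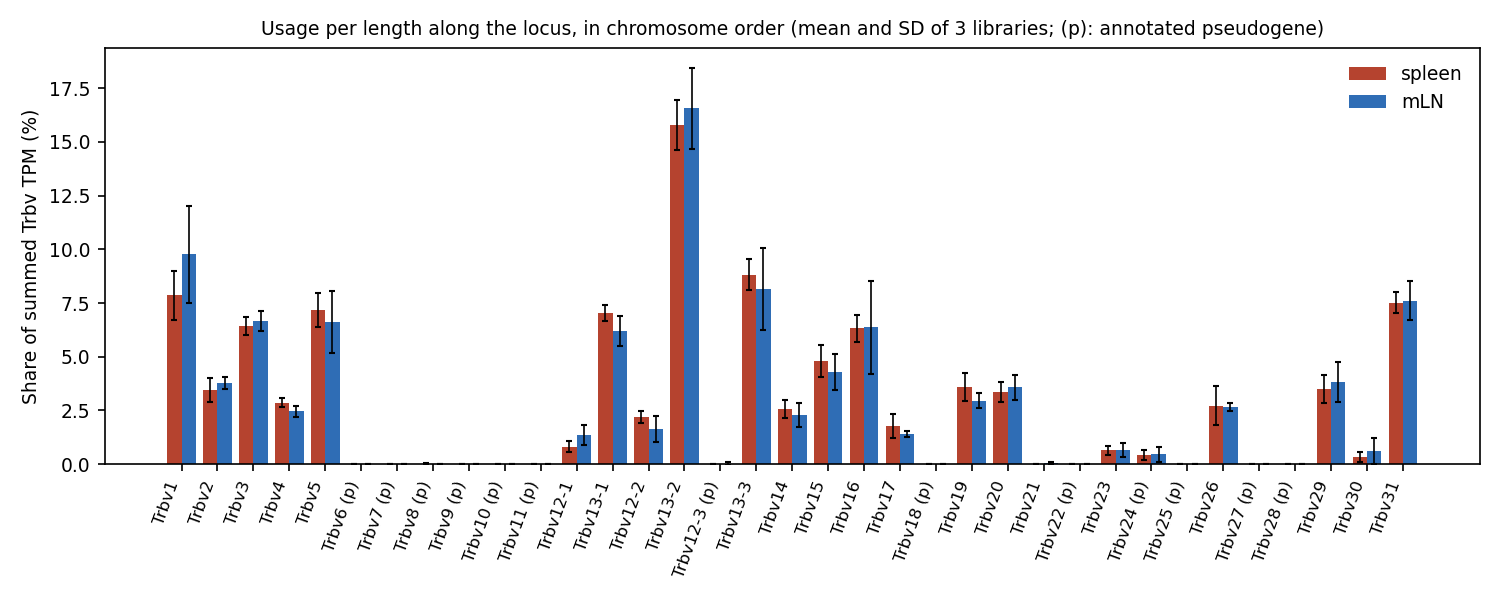
Bars give each V segment's share of the summed V TPM in percent, as the mean of 3 libraries with its SD, in chromosome order from Trbv1 to Trbv31 for spleen (red) and mLN (blue), with annotated pseudogenes marked (p). Trbv13-2 stands highest in both groups (15.8% in spleen, 16.6% in mLN), and the run from Trbv6 to Trbv11, all pseudogenes, is at or near 0.

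Pseudogenes together took 0.311 ± 0.160% of V counts in spleen and 0.333 ± 0.258% in mLN (exact permutation p = 0.90). Nearly all of it came from Trbv24, with 10, 7 and 18 counts in the spleen libraries and 1, 9 and 15 in the mLN libraries. Its share was lowest in mLN replicate 1 at 0.0352% (95% Wilson interval 0.00622 to 0.199%), and its groups overlapped. Trbv24 is the segment whose printed end carries the in-frame TAG, and the RefSeq table lists it as a V segment rather than a pseudogene. Trbv29 is the reverse case, functional in GENCODE and a pseudogene in the RefSeq table, and took 2.60 ± 0.514% of V counts in spleen and 2.74 ± 0.564% in mLN. The functional segments below a mean of 1% were Trbv21, Trbv23 and Trbv30. Trbv30 reached 0.716% in mLN replicate 2 (14 counts) against 0.0854 to 0.352% in the other 5 libraries (3 to 17 counts). These counts are few, and mLN replicate 2 had the smallest V total.

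The rest of the receptor complex was lower in mLN in part. Of the 7 genes for the constant regions and CD3 proteins, all tested, 5 fell and 1 rose in edgeR, where 13.5% of all genes were called lower and 16.1% higher. Trbc1 fell by 0.41 and Trbc2 by 0.48 on the log2 scale (edgeR adjusted p = 1.91e-05 and 9.22e-07), with summed levels of 1344 ± 25.4 CPM in spleen and 981 ± 28.1 CPM in mLN. The signalling chains Cd3d (−0.51), Cd3g (−0.52) and Cd247 (−0.52) fell as well. Cd3e rose from 279 ± 7.38 to 356 ± 20.8 CPM (log2 fold change 0.35, edgeR adjusted p = 0.000129), and Trac, the constant gene of the alpha chain, stood at 551 ± 11.3 and 542 ± 12.3 CPM (−0.02, adjusted p = 0.799).

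Of 15 genes of V(D)J recombination, 14 were tested, of which 2 fell and 0 rose, a share near the 13.5% of all genes called lower. They were Hmgb1 (−0.40, edgeR adjusted p = 2.29e-05) and Hmgb2 (−0.82, edgeR adjusted p = 4.59e-07), abundant DNA-bending proteins that assist RAG and act throughout chromatin. Next by p came Xrcc5 (−0.25, adjusted p = 0.0970) and Xrcc4 (−0.33, adjusted p = 0.109), which repair double-strand breaks in all cells. Ptcra, which pairs with the beta chain in thymocytes, was at 0 in all 6 libraries.

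Markers of other cells moved between the groups too, in edgeR calls of which all genes had 13.5% lower and 16.1% higher in mLN. All 7 B cell genes fell in mLN, with sums of 503 to 539 CPM in spleen and 344 to 371 CPM in mLN. Most of that was Ighm, at 487 ± 15.8 and 339 ± 14.1 CPM (log2 fold change −0.52), so the sums mainly follow this 1 gene. Ms4a1 was at 5.84 ± 0.902 and 1.71 ± 0.844 CPM (−1.78), and the median fold change of the 7 genes was −1.16. Of 8 myeloid genes 5 were tested and all 5 fell, with sums of 43.1 to 52.4 CPM in spleen and 2.82 to 3.87 CPM in mLN. Other T cells can carry beta segments as well: the CD8 genes summed to 16.1 to 17.8 CPM in spleen and 12.5 to 20.4 in mLN, regulatory T cell genes to 6.99 to 8.63 and 4.48 to 8.03, and NKT genes to 2.62 to 5.05 and 0.976 to 2.28, with 0 of their 8 tested genes called. Genes of gamma-delta T cells summed to 6.17 to 9.62 CPM in spleen and 6.84 to 8.93 CPM in mLN. Among naive T cell genes Ccr7 fell and Lef1 and Tcf7 rose, and of 2 tested memory genes Cd44 fell. The part of these cells in the V segment results was not tested.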

How the data were processed

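Polyadenylated RNA of 3 spleen and 3 mLN samples of naive CD4+ T cells was sequenced after library preparation with a directional kit, per the labels' protocols. STAR, RSEM and the build mm10 are named in the submitters' processing notes. Versions, strand setting and annotation release: not given in the sources used here. Expected counts, per the file headers, are the estimated fragments of each gene before any normalization, and some are fractional. The deposited TPM values are abundances scaled to a fixed total after division by effective length, per the file headers. The deposited FPKM values were looked at and not used. Deposited length and effective length are in nucleotides, per the file headers.

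Symbols came from a mouse gene name table, which named 55141 of 55487 identifiers. Coordinates, biotypes and sequences came from GENCODE vM21 (GRCm38) for all 51 segments, and the deposited length equals the GENCODE length in 43 of the 43 segments with 1 transcript there. Older names came from the RefSeq table.

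Counts were rounded, filtered with edgeR's filterByExpr (12486 genes kept) and scaled by TMM. Genes were tested with the quasi-likelihood F test of edgeR (two-sided, robust), with tissue as the only term and Benjamini-Hochberg adjustment over all genes tested. The standard error of a log2 fold change is its size over the square root of F. Single values were compared by two-sided exact permutation tests. Shares were computed from unrounded counts, and their Wilson intervals, at 95%, from rounded ones. The test was tried on simulated data first. Each library was counted as 1 sample. Replicates differed by more than sampling noise over all genes (chi-square per degree of freedom 5.66 to 12.0), which does not show whether they are independent samples. A floor of 3 counts is 0.150 to 0.227 CPM.

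Named segments are those with a mean share of at least 1% of V counts or a call at an adjusted p under 0.05, and from the gene lists all receptor and CD3 members and up to 4 recombination members with the smallest p. The results for 2 marker genes are not reported here. Other genes named, Trbv24 and Trbv30 among them, were chosen after their values were seen. The members and lists were chosen with earlier results of these data known. The alternatives were RLE and upper-quartile factors, the V total as library size, removal of a length trend (loess span 0.3), DESeq2, limma-voom, limma on log2(TPM + 1), other filters, a replicate block, a threshold of 0.01, shares of TPM or of functional segments only, and each library left out in turn. The distance between usage profiles, the count of segments with groups apart, and the V total as library size without mLN replicate 2 were added after seeing the data. Tools were Python 3.11.15 with scipy 1.17.1, pandas 2.3.3, numpy 2.4.6 and matplotlib 3.10.9, and DESeq2 1.42.0, limma 3.58.1 and edgeR 4.0.16 in R 4.3.3.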

Additional observations from a re-analysis of the deposited data

How the results depend on the processing

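The count of 11 V segments lower in mLN was also 11 with RLE factors, DESeq2, limma-voom, no filter and a stricter filter, 12 with upper-quartile factors, 5 at a threshold of 0.01, 2 in limma on log2(TPM + 1), 0 after removal of the length trend, and 0 with the V total as library size, with or without mLN replicate 2. The count higher was 0 under every one of these settings. The share of all genes at the threshold of 0.01 was not counted. Of 12486 genes, 1689 were called lower in the main fit, 1716 with RLE and 2046 with upper-quartile factors, 1749 in DESeq2 and 1693 in limma-voom. With no filter 1772 of 20587 genes were lower, and with the stricter filter 1721 of 11643. Leaving out 1 library at a time gave 5 to 11 lower and 0 higher, beside 10.3 to 13.3% of all genes called lower. With the V total as library size, which raised the median fold change of all genes to 0.59 and so moves every segment up alike, Trbv3 (0.0725) and Trbv13-2 (0.0337) turned positive, and without mLN replicate 2 as well Trbv3 (0.00571), Trbv13-2 (0.154) and Trbv13-3 (0.0646) did. The log2 ratio of the V total, −0.60, was −0.57 without factors, −0.60 with RLE and −0.65 with upper-quartile factors, −0.22 as summed TPM and −0.15 per Trbc count, and ran from −0.65 to −0.52 with 1 library left out. The count of segments with groups apart, 0 by counts, was 1 by TPM and 0 to 5 with 1 library left out. Differences with 1 library left out ran from −0.75 to −0.26 for the effective number of V segments, from −2.52 to 0.687 points for the Trbv13 family, from −0.134 to 0.118 for the Trbv12 family and from −0.0632 to 0.170 for pseudogenes.

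Same-numbered libraries correlated weakly in their deviations from the group means, at 0.0223, 0.00230 and 0.0652. Differently numbered libraries correlated at −0.0456 to 0.0238. These values do not settle whether replicate numbers mark pairs. With the replicate number as a block 13 segments were called lower, Trbv2 and Trbv16 beside the 11, and 0 higher. Calls rose over all 12486 genes as well, from 1689 to 2140 lower and from 2010 to 2566 higher. The V total had a log2 ratio of −0.60 (exact sign-flip p = 0.25, the smallest that 3 pairs can give). The effective number of V segments differed by −0.48, the Trbv13 family by −1.11 points, the Trbv12 family by 0.0130 and pseudogenes by 0.0217 within pairs. The planned shares of the D and J classes and of the Trbj2 cluster could not be run, since all their counts are 0. V totals of 1955 to 4825 counts limit the precision of each share.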
